A study of Mus musculus with 44 samples.

Results

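Arc, Homer1, Plk2, Nptx1, Nptx2, Nptxr, Rheb and Inhba are genes whose products act at the synapse and most of which are switched on by neuronal activity. These 8 genes were taken by symbol, mapped to their gene identifiers, out of the 27179 genes counted in each library, and all 8 passed the filter on low counts in each of the 15 comparisons fitted. The libraries were RNA sequencing of the dorsal hippocampus of young adult mice, in 6 groups of 6 libraries (3 labelled male and 3 labelled female in each). WT 0 h, WT 1 h and WT 3 h were wild-type littermates, either naive (0 h) or killed 1 h or 3 h after contextual fear conditioning, a training session that pairs a new chamber with foot shocks. Mutant 0 h, mutant 1 h and mutant 3 h were Kdm5bDARID/DARID mice taken at the same times. Their Kdm5b allele is a constitutive, whole-body deletion that removes the ARID domain and leaves KDM5B without demethylase activity, and both genotypes came from an intercross on a mixed C57BL/6J and 129S2/Sv background. The naive mice were not put in the chamber, so the 1 h and 3 h groups differ from 0 h by the whole session and not by learning alone.

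When excitatory neurons fire, calcium entry and the kinases it activates first turn on genes for transcription factors such as Fos and Egr1, together with a smaller set of genes for proteins that work directly at dendrites and synapses. Arc helps to remove AMPA receptors from the postsynaptic membrane, the short form of Homer1 competes with long Homer proteins that tie metabotropic glutamate receptors to the scaffold, and Plk2 is a kinase that weakens spines after prolonged activity. Nptx1, Nptx2 and the membrane-bound Nptxr are neuronal pentraxins that gather AMPA receptors from the outside of the synapse, Rheb is a small GTPase that activates mTORC1, and Inhba encodes the subunit of activin A, a secreted ligand. Contextual fear learning depends on the dorsal hippocampus, where Arc is widely used as a mark of recently active neurons.

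On the GRCm38 build, Arc lies at chr15:74669081-74672570 on the minus strand and Homer1 at chr13:93303757-93405129 on the plus strand. Plk2 lies at chr13:110395044-110400844 on the plus strand, and Inhba lies on the same chromosome and strand at chr13:16004256-16031609. The pentraxin genes are unlinked, with Nptx1 at chr11:119538719-119547820 on the minus strand, Nptx2 at chr5:144545887-144557478 on the plus strand and Nptxr at chr15:79786351-79804709 on the minus strand. Rheb lies at chr5:24802823-24842361 on the minus strand. Counts were per gene, so short and long Homer1 transcripts, of which GENCODE lists 12 and RefSeq 5, were counted together and cannot be told apart. Nptxr shares 890 exonic bases on the same strand with Npcd, which had no counts in any library. How reads in that stretch were treated is not given in the sources used here, so the level of Nptxr is uncertain to that extent.

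RefSeq promoter windows were given for 4 of the 8 genes (Homer1, Plk2, Rheb and Inhba). The 250 bases upstream of the start are shown for 3 of them, because the time course bears on Homer1, because Plk2 held the only full CRE of the 4, and because Inhba differs from both. The CRE (TGACGTCA) is the classical site of the activity-regulated factor CREB, and TGACG is its core. Capitals mark TGACG, TGACGTCA or the TATA box (TATAAA), searched on both strands, with each match of TGACGTCA also counted as matches of TGACG. The sequences are from RefSeq on GRCm38.p6.
Homer1, chr13:93303507-93303756, plus strand: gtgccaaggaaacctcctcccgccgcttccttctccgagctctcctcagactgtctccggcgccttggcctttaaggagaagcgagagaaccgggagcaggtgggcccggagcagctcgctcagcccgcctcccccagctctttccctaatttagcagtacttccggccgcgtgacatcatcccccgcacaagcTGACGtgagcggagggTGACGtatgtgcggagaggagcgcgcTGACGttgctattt
Plk2, chr13:110394794-110395043, plus strand: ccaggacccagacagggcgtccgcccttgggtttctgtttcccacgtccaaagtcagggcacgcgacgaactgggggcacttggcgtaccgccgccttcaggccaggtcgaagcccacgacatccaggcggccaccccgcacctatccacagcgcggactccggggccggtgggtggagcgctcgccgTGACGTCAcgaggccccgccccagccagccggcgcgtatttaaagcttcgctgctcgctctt
Inhba, chr13:16011601-16011850, plus strand: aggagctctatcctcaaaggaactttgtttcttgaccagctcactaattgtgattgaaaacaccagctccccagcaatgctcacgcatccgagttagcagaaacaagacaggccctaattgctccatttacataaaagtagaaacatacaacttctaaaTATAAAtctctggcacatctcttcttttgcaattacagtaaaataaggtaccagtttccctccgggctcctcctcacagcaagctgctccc
The Homer1 window held 3 matches to TGACG, starting 56, 40 and 14 bases before the start, and no full CRE. Of the 32851 windows of the same length, 17.8% held at least 1 match to TGACG and 0.688% held at least 3. The Plk2 window held the full TGACGTCA starting 62 bases before the start, which 1.55% of windows held. The Inhba window held TATAAA starting 91 bases before the start, which 12.4% of windows held, and no match to TGACG. That RefSeq start, and the window with it, lies inside the gene span given above (chr13:16004256-16031609). Bases upstream of the whole Inhba span were not searched. The Rheb window, not shown, held a single TGACG starting 247 bases before the start. Neither the AP-1 letters TGANTCA nor the EGR letters GCGNGGGCG were in any of these windows, and they were in 6.75% and 4.7% of all windows. A second RefSeq start of Homer1 had no match to any of the motifs. A match describes the letters and is not evidence of binding.

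Library totals ran from 40274435 to 107000233 counts. In 2 libraries the sex transcripts went against the label: the library labelled WT 1 h male 1 had 51186 Xist counts and 0 counts on Y-linked genes, and the library labelled mutant 3 h female 2 had 36 Xist counts and 10239 Y-linked counts. Both stood apart in the activity-regulated genes as well, so results that rest on them are given with and without them. The library labelled WT 1 h male 1 was the lowest of its group for 6 of 8 early transcription factors, and the library labelled mutant 3 h female 2 was the highest of its group for 7 of the same 8. Kdm5b, whose reads were still counted in the mutants, had a mean of 86.5 CPM (counts scaled to a common library size) in WT 0 h and 80.5 CPM in mutant 0 h, and gene counts do not check the deletion itself. Its level in the library labelled WT 1 h male 1 was 79.6 CPM, below the other 17 WT libraries (81.5 to 97.1 CPM), and Kdm5b reached 93.6 CPM in the library labelled mutant 3 h female 2, above the other 17 mutant libraries (75.6 to 90.6 CPM). The Kdm5b ranges of the genotypes overlap. Not every early gene stood apart: in the library labelled WT 1 h male 1, Npas4 (16.6 CPM) and Fosb (15.9 CPM) lay above all WT 0 h libraries (highest 9.83 and 12.4 CPM), and Egr3 was the fourth from the lowest of 6 in the library labelled mutant 3 h female 2. Whether the labels of these 2 libraries were exchanged was not tested. Markers of dentate granule cells, CA1 and CA3 were present in every library. Choroid plexus markers varied widely, with all 5 detected and a summed level of 42.4 to 7934 CPM, and those of the striatum stayed at 7.54 to 45.3 CPM. In tissue RNA, fewer cells of a type and less RNA per cell cannot be told apart.

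Compared per kilobase of GENCODE exon sequence, Nptx1 was the most abundant of the 8 transcripts and Inhba the least. Over all 36 libraries the mean level was 141 CPM per kb for Nptx1, 62.3 for Plk2, 53.4 for Arc, 17.4 for Nptx2, 16.8 for Nptxr, 14.1 for Rheb, 11.7 for Homer1 and 0.712 for Inhba. The Homer1 value is lowered by the length of its merged exons, 11976 bases, which no single transcript uses in full. Even Inhba was counted at least 160 times in every library.

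The genes also differed in how much they varied between mice of one group. The SD of log2 CPM within groups, pooled over the 6 groups, was 0.55 for Arc, larger than for 96.4% of the 14577 genes with a mean of at least 1 CPM, and 0.06 for Rheb, larger than for 4.04% of them. The median gene had 0.13. Homer1 (0.14) and Plk2 (0.15) were close to that median, while Nptx2 (0.18), Nptx1 (0.20), Nptxr (0.24) and Inhba (0.24) lay above it. With all libraries, levels thus varied most between mice for Arc and least for Rheb. The pooled SD without the 2 discordant libraries was not computed. For Arc, the SD of CPM as a share of the mean fell without them from 75.1% to 23.9% in mutant 3 h and from 41% to 32.8% in WT 1 h.

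**Figure D1:**
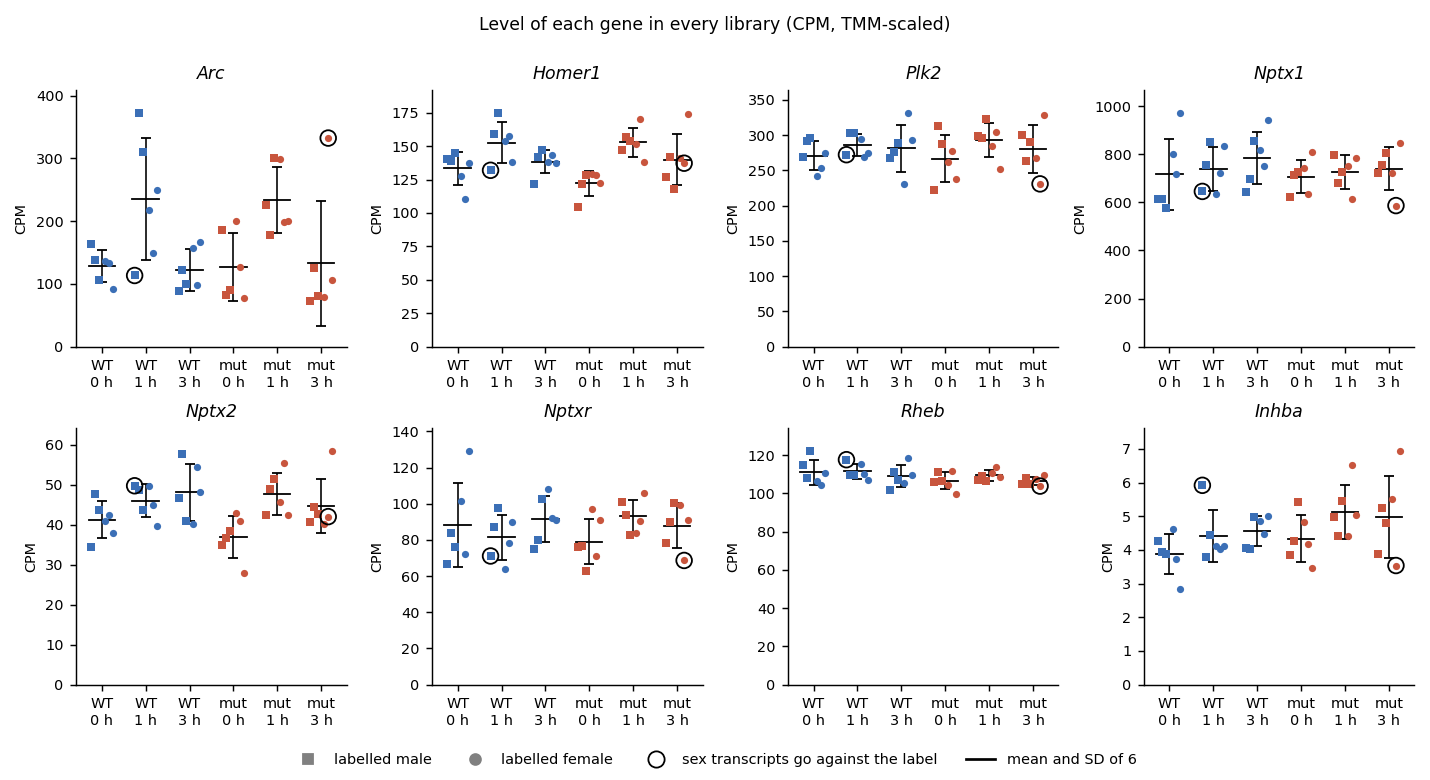
CPM of each of the 8 genes (vertical axis, from 0) in every library, by group (horizontal axis), with squares for libraries labelled male, circles for those labelled female, and a bar for the mean and SD of 6. The 2 ringed libraries are those whose sex transcripts go against the label. Arc stood higher at 1 h in both genotypes, with the ringed library of WT 1 h the lowest of its group (113 CPM) and that of mutant 3 h the highest (332 CPM), and Rheb was nearly level.

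Arc, the regulator of AMPA receptor removal, had the largest fitted rise of the 8 genes after training. In the WT, Arc ran from 91.7 CPM through a median of 134.8 to 163.6 CPM at 0 h, from 113.4 through 234.1 to 371.5 CPM at 1 h, and from 88.2 through 111.1 to 166.6 CPM at 3 h. In the mutants it ran from 77.9 through 108.9 to 200.3 CPM at 0 h, from 177.7 through 212.7 to 300.8 CPM at 1 h, and from 73.1 through 93.2 to 332.3 CPM at 3 h. The 1 h values overlapped those at 0 h in both genotypes, with 4 of 6 libraries above the highest naive library in each. With both genotypes in one fit, Arc rose 1.83-fold at 1 h (log2 fold change 0.87, SE 0.20, edgeR adjusted p = 0.0376). Without the 2 libraries of discordant sex the rise was 1.92-fold (log2 0.94, SE 0.18, adjusted p = 0.0080). The call was marginal with all libraries: leaving out any 1 of 15 of the 24 libraries took the adjusted p to between 0.0515 and 0.0762, the exceptions being WT 0 h males 1 and 2 and female 2, mutant 0 h male 1 and females 1 and 2, the library labelled WT 1 h male 1, WT 1 h female 2 and mutant 1 h male 2.

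Within a genotype the Arc difference at 1 h was of the same size but was not called. It was 0.86 on the log2 scale in the WT (SE 0.28, adjusted p = 0.92) and 0.88 in the mutants (SE 0.29, adjusted p = 0.28). At 3 h, Arc could not be told from its naive level in both genotypes together (log2 difference from 0 h of -0.04, 95% interval -0.52 to 0.44, adjusted p = 0.96, and -0.25 without the discordant libraries, adjusted p = 0.54). The difference between 3 h and 1 h turned on the library labelled mutant 3 h female 2. With it, the log2 difference was -0.91 (SE 0.24, adjusted p = 0.0984). Without that 1 library it was -1.13 (adjusted p = 0.00584), and without both discordant libraries it was -1.21 (SE 0.17, adjusted p = 0.00057). In the mutants alone the log2 difference from 1 h to 3 h was -0.88 (adjusted p = 0.61), or -1.33 without that library (adjusted p = 0.0742), and in the WT alone it was -0.95 (adjusted p = 0.55), or -1.08 without the library labelled WT 1 h male 1 (adjusted p = 0.26).

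Homer1, which encodes the scaffold protein whose short form is activity-induced, rose less than Arc but with little spread. In the WT it ran from 110.6 CPM through a median of 138.2 to 144.9 CPM at 0 h, from 131.9 through 155.6 to 174.4 CPM at 1 h, and from 121.9 through 139.8 to 146.7 CPM at 3 h. In the mutants it ran from 104.2 through 125.1 to 128.9 CPM at 0 h, from 137.8 through 152.6 to 170.3 CPM at 1 h, and from 117.8 through 139.1 to 173.7 CPM at 3 h. All 6 mutant 1 h libraries lay above all 6 mutant 0 h libraries, and the WT ranges overlapped. Homer1 was the single one of the 8 genes whose ranges did not overlap in the mutants at 1 h, where 1.4% of the named genes tested did not, and none of the 8 was free of overlap in the WT, where 0.239% were. Over both genotypes Homer1 rose 1.19-fold at 1 h (log2 0.25, SE 0.05, adjusted p = 0.0128), and it kept its call without the discordant libraries (log2 0.28, adjusted p = 0.00188).

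In the mutants alone Homer1 rose 1.25-fold at 1 h (log2 0.32, SE 0.06, adjusted p = 0.0279). That call was lost, at adjusted p between 0.0506 and 0.089, on leaving out mutant 0 h female 3 or any mutant 1 h library other than female 3. In the WT the log2 difference was 0.19 (SE 0.07, adjusted p = 0.92), or 0.25 without the library labelled WT 1 h male 1 (adjusted p = 0.29). At 3 h Homer1 was 0.12 above 0 h on the log2 scale in both genotypes together (SE 0.06, adjusted p = 0.30) and 0.14 below 1 h (log2 difference -0.14, SE 0.05, adjusted p = 0.29), neither of which was called.

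**Figure D2:**
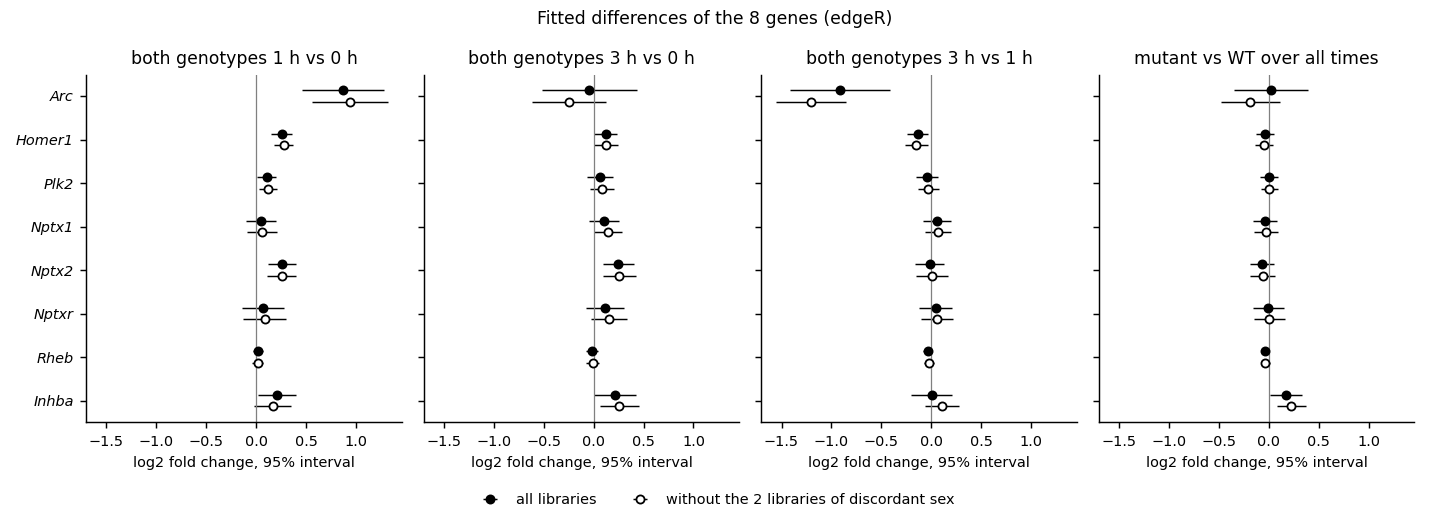
Fitted log2 fold change with its 95% interval (horizontal axis) of each gene (vertical axis) in 4 comparisons, from edgeR, with filled circles for all libraries and open circles without the 2 libraries of discordant sex. Over both genotypes at 1 h against 0 h all 8 values were above 0, from 0.02 for Rheb to 0.87 for Arc, and with all libraries the intervals of mutant against WT spanned 0 for every gene other than Inhba.

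Among the pentraxins, Nptx2, the secreted form induced by activity, was the one nearest to a call. In the WT it ran from 34.6 CPM through a median of 41.7 to 47.7 CPM at 0 h, from 39.6 through 46.8 to 49.8 CPM at 1 h, and from 40.2 through 47.5 to 57.8 CPM at 3 h. In the mutants it ran from 27.9 through 37.5 to 43.0 CPM at 0 h, from 42.5 through 47.2 to 55.5 CPM at 1 h, and from 40.1 through 42.4 to 58.3 CPM at 3 h. The naive ranges overlapped those at 1 h and at 3 h in both genotypes. Over both genotypes Nptx2 was 1.199-fold its naive level at 1 h (log2 0.26, SE 0.07, adjusted p = 0.0594) and 1.19-fold at 3 h (log2 0.25, SE 0.08, adjusted p = 0.0976). The 1 h difference passed the threshold in DESeq2 (adjusted p = 0.0105), in edgeR without the sex term (0.0494), and in edgeR on leaving out WT 0 h male 2 (0.0288) or WT 0 h female 2 (0.0464), and leaving out single libraries took it up to 0.117. In the mutants alone the log2 difference at 1 h was 0.37 (SE 0.10, adjusted p = 0.17). With same-numbered libraries as a block, Nptx2 joined Homer1 as a call there (log2 0.37, edgeR adjusted p = 0.0478). Those libraries are different mice, and the labels do not say that they were paired. Their deviations correlated above 0.1 in 6 of 6 pairs, but in 2 of 6 once sex means were removed. In the WT alone the log2 difference at 1 h was 0.16 (SE 0.08, adjusted p = 0.92).

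Nptx1 and Nptxr, the pentraxins that are abundant in unstimulated neurons, were not called in any comparison. Nptx1 ran from 576 CPM to 969 CPM in WT 0 h, wider than in any other group, and its group means lay between 707 and 784 CPM. Over both genotypes its log2 difference at 1 h was 0.05 (95% interval -0.10 to 0.19, adjusted p = 0.84). Nptxr had group means from 79.1 CPM in mutant 0 h to 93.0 CPM in mutant 1 h, and in the WT from 81.4 CPM at 1 h to 91.5 CPM at 3 h. Its log2 difference at 1 h was -0.11 in the WT (SE 0.16, adjusted p = 0.96) and 0.24 in the mutants (SE 0.09, adjusted p = 0.36). The WT value was 0.02 without WT 0 h female 3. The directions in the 2 genotypes are opposite with all libraries, but the test of the difference between them gave 0.34 (SE 0.19, 95% interval -0.06 to 0.74, adjusted p = 0.9989), so no difference between the genotypes was shown.

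Plk2, the spine kinase, had group means between 267 and 293 CPM and stood at a log2 difference of 0.10 at 1 h over both genotypes (SE 0.04, 95% interval 0.01 to 0.20, adjusted p = 0.31). Its lowest library had 222 CPM (in mutant 0 h) and its highest 331 CPM (in WT 3 h). Rheb, the activator of mTORC1, had group means between 106 and 112 CPM and the narrowest interval of the set, with a log2 difference of 0.02 at 1 h (95% interval -0.03 to 0.07, adjusted p = 0.80).

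Inhba, the activin A subunit, was present at low level. It ran from 2.85 CPM through a median of 3.91 to 4.62 CPM in WT 0 h, from 3.80 through 4.13 to 5.92 CPM in WT 1 h, and from 4.03 through 4.66 to 5.02 CPM in WT 3 h. In the mutants it ran from 3.45 through 4.22 to 5.43 CPM at 0 h, from 4.402 through 4.999 to 6.51 CPM at 1 h, and from 3.54 through 5.03 to 6.92 CPM at 3 h. The highest WT 1 h library and the lowest mutant 3 h library were those of discordant sex, and all ranges overlapped. The log2 difference from 0 h over both genotypes was 0.21 at 1 h (SE 0.09, adjusted p = 0.33) and 0.22 at 3 h (SE 0.10, adjusted p = 0.31), and without the discordant libraries it was 0.17 (adjusted p = 0.41) and 0.26 (adjusted p = 0.15). At 1 h it was 0.18 in the WT (adjusted p = 0.94), or 0.09 with its discordant library left out, and 0.24 in the mutants (adjusted p = 0.54).

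Counted over the set, few of the genes passed the threshold after training, and the share of all genes that did so was small as well. With both genotypes together, 2 of 8 genes (Arc and Homer1, both higher) were called by edgeR and 3 (with Nptx2) by DESeq2 at 1 h against 0 h, where edgeR called 1.05% of all genes tested, and 5 of 8 passed an unadjusted threshold of 0.05, where 12.8% of all genes did. The median log2 difference of the 8 was 0.16, beside -0.01 over all genes tested. At 3 h against 0 h none was called by edgeR and 1 (Nptx2) by DESeq2, where 1.57% of all genes were called by edgeR, and 3 passed the unadjusted threshold, where 15.1% of genes did. At 3 h against 1 h none was called by edgeR and 1 (Arc, lower) by DESeq2, where 0.486% of genes were called by edgeR, and 2 passed the unadjusted threshold, where 11.1% did. Without the discordant libraries the counts past the unadjusted threshold were 4 at 1 h (Inhba no longer), 4 at 3 h (Nptx1 as well) and 2 between 3 h and 1 h, where edgeR then called Arc. In these fits 14.1%, 16.5% and 13.4% of all genes passed that threshold, and 2.09% were called between 3 h and 1 h. DESeq2 called 2.73% at 1 h, 5.0% at 3 h and 1.88% between 3 h and 1 h, of the genes to which it gave an adjusted p.

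In the mutants at 1 h against 0 h, 1 of 8 genes (Homer1) was called by edgeR and 2 by DESeq2 (Homer1 and Nptx2), where edgeR called 0.312% of all genes and DESeq2 1.99%, and 4 (Arc, Homer1, Nptx2 and Nptxr) passed the unadjusted threshold, where 11.1% of all genes did. In the WT at 1 h against 0 h neither tool called any of the 8, edgeR called 0% of all genes and DESeq2 0.0222%, and 2 (Arc and Homer1) passed the unadjusted threshold, where 5.36% of genes did. Without the library labelled WT 1 h male 1 Plk2 passed it too, making 3, where 6.69% of genes did. The test of whether the genotypes differed in the 1 h response called none of the 8 in edgeR or DESeq2, and none passed the unadjusted threshold. Of all genes, edgeR called 0% and DESeq2 0.00866% for that difference, and 3.78% passed the unadjusted threshold in edgeR. The 8 log2 values of that difference ran from -0.02 (Nptx1) to 0.34 (Nptxr), with a value for Homer1 of 0.13 (95% interval -0.08 to 0.33). For the 3 h response the same test called none of the 8 with either tool, none passed the unadjusted threshold, and 0% and 1.52% of all genes did.

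The other comparisons of time within a genotype gave no call in edgeR or DESeq2 for the 8 genes, and edgeR called 0% of all genes in each of them. DESeq2 called 0.523% of all genes in WT 3 h against 0 h, 0.385% in WT 3 h against 1 h, 0.82% in mutant 3 h against 0 h and 0.502% in mutant 3 h against 1 h. For WT 3 h against 0 h, 1 of 8 (Nptx2) passed the unadjusted threshold, where 8.23% of all genes did. For WT 3 h against 1 h it was 1 (Arc), where 7.41% did. For mutant 3 h against 0 h it was 2 (Homer1 and Nptx2), where 8.57% did, and for mutant 3 h against 1 h it was 1 (Arc), where 8.04% did. Without the discordant library of each, Homer1 joined Arc in WT 3 h against 1 h (2 of 8) and Nptxr joined in mutant 3 h against 0 h (3 of 8), where 8.4% and 11.2% of all genes passed. The comparisons with 0 h share the naive libraries, so their values are not independent of each other.

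Mutant and WT mice did not differ detectably in any of the 8 genes. Over all times, with both genotypes compared at matched hours, edgeR called none of the 8 and DESeq2 none, where edgeR called 1.3% of all genes and DESeq2 2.8%, and 1 (Inhba) passed the unadjusted threshold, where 15.2% of all genes did. Inhba was 1.12-fold its WT level in the mutants (log2 0.17, SE 0.08, 95% interval 0.01 to 0.33, adjusted p = 0.30), with a higher mutant mean at each of the 3 times. Without the discordant libraries the log2 difference was 0.23 (SE 0.07, adjusted p = 0.079). For Arc the log2 difference was 0.02 (95% interval -0.35 to 0.39, adjusted p = 0.97), and it turned to -0.18 without the discordant libraries (95% interval -0.48 to 0.11, adjusted p = 0.57). For Homer1 it was -0.04 (95% interval -0.13 to 0.05, adjusted p = 0.76) and for Nptx2 -0.07 (95% interval -0.19 to 0.05, adjusted p = 0.64). The median of the 8 was -0.02, beside 0.00 over all genes.

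At single times the same held. DESeq2 called 0.0786% of all genes at 0 h, 0.509% at 1 h and 0.246% at 3 h. In naive mice the log2 differences of mutant against WT ran from -0.16 (Nptx2) to 0.16 (Inhba), none of the 8 was called by edgeR or DESeq2, none passed the unadjusted threshold, and edgeR called 0% of all genes while 6.15% passed the unadjusted threshold. At 1 h they ran from -0.03 (Rheb) to 0.22 (Inhba, SE 0.13, adjusted p = 0.66), with no call by either tool, none past the unadjusted threshold, and 0% of all genes called and 8.61% past it. Without the library labelled WT 1 h male 1 they ran from -0.15 (Arc) to 0.32 (Inhba, 95% interval 0.08 to 0.57, adjusted p = 0.31), Inhba alone passed the unadjusted threshold, none of the 8 was called, and edgeR called 0.236% of all genes while 10.3% passed the unadjusted threshold. At 3 h they ran from -0.11 (Nptx2) to 0.13 (Inhba), again with no call by either tool and none past the unadjusted threshold, where edgeR called 0.0115% of all genes and 6.36% passed the unadjusted threshold. Without the library labelled mutant 3 h female 2 they ran from -0.35 (Arc, 95% interval -0.81 to 0.11, adjusted p = 0.71) to 0.23 (Inhba), with none called and none past the unadjusted threshold, where 0.103% and 8.06% of all genes were. For Arc the intervals at single times were wide, at 0 h from -0.64 to 0.61 on the log2 scale, so a difference of about 1.5-fold either way lay within the interval.

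The early transcription factors measured in the same libraries were followed for comparison. All 8 of them (Fos, Fosb, Egr1, Egr2, Egr3, Npas4, Junb and Nr4a1) rose at 1 h over both genotypes, with a median log2 difference of 0.77, where 1.05% of all genes were called. The smallest adjusted p values were those of Fosb (2.57-fold, log2 1.36, SE 0.11, adjusted p = 1.5e-07), Egr3 (1.33-fold, adjusted p = 0.0020), Junb (1.68-fold, adjusted p = 0.0128), Fos (2.38-fold, adjusted p = 0.0128) and Egr1 (1.65-fold, adjusted p = 0.0150). In the mutants alone edgeR called 3 of 8, namely Fosb, Egr1 and Egr3, where it called 0.312% of all genes, and DESeq2 called 7. In the WT alone edgeR called none, where it called 0% of all genes, and DESeq2 called 2. With the discordant library of WT 1 h left out, edgeR called 2 of these factors, beside 3 genes in all. All 8 passed the unadjusted threshold in each genotype, where 5.36% of all genes did in the WT and 11.1% in the mutants, and DESeq2 called 0.0222% and 1.99% of all genes. Fosb and Egr3 were still above 0 h at 3 h, by 0.72 and 0.34 on the log2 scale (adjusted p = 0.0152 and 0.0157). All 8 had lower fitted values at 3 h than at 1 h over both genotypes, with 7 past the unadjusted threshold. Of these edgeR called 1 with all libraries and 7 without the discordant libraries, and DESeq2 called 6, where these fits called 0.486%, 2.09% and 1.88% of all genes. The call with all libraries was Fosb (log2 difference -0.64, adjusted p = 0.0392, and 0.00035 without the discordant libraries), and Fosb was called on leaving out 7 of 24 single libraries. The fitted log2 difference of Arc at 1 h lay within the range of the transcription factors, and those of Homer1 and Nptx2 lay below all 8 of them.

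**Figure D3:**
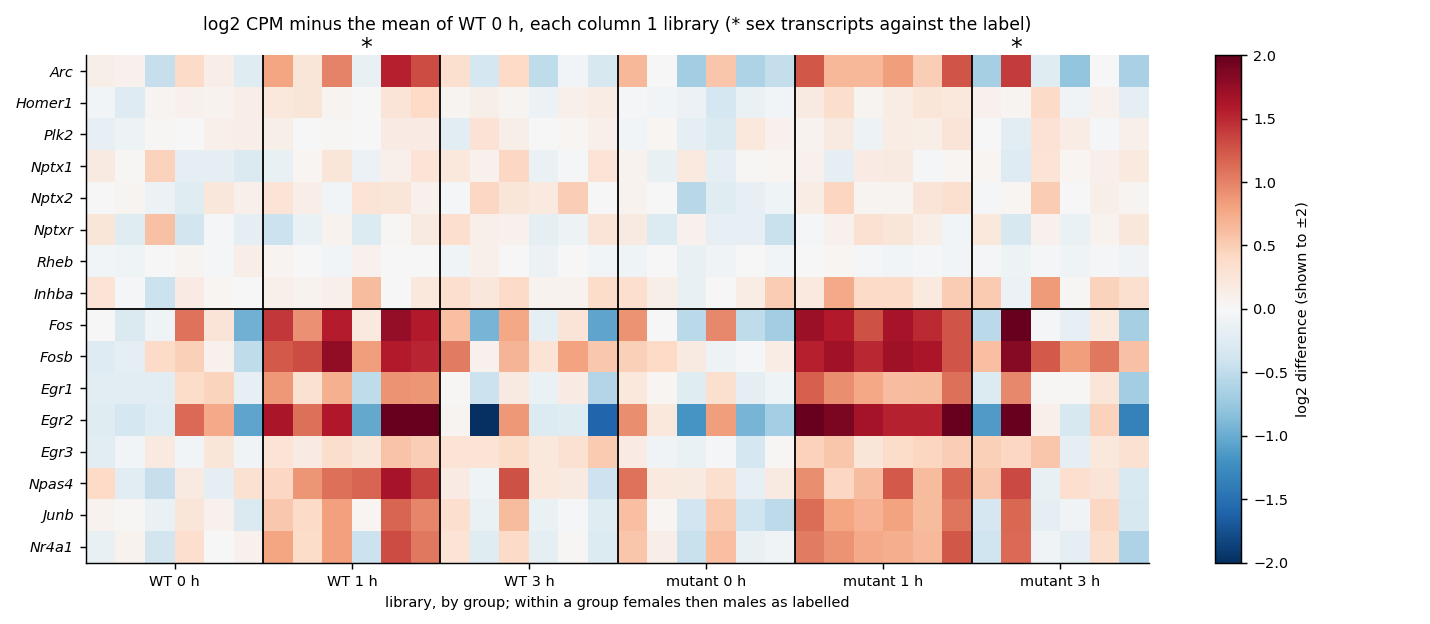
log2 CPM minus the mean of WT 0 h (color, shown to ±2) for the 8 genes (top) and 8 early transcription factors (bottom), each column 1 library, by group. The 2 libraries under an asterisk are those of discordant sex. In the Arc row, as in the rows of Fos, Egr1, Junb and Nr4a1, the marked WT 1 h library is the lowest of its group and the marked mutant 3 h library the highest.

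Of the 68 other genes in the pathways these proteins belong to, listed in 7 groups, few or none were called in each comparison. At 1 h over both genotypes edgeR called 1 of 68 and DESeq2 called 4, and 12 passed the unadjusted threshold, where 1.05% and 12.8% of all genes were called by edgeR or passed the unadjusted threshold. Without the discordant libraries edgeR called 3, beside 1.99% of all genes in that fit and 2.73% by DESeq2. The edgeR call with all libraries was Homer2, a long Homer scaffold protein, which rose 1.14-fold (log2 0.19, SE 0.04, adjusted p = 0.0363, called on leaving out 12 of 24 single libraries) and was the 1 call among 10 genes of the Homer and metabotropic receptor scaffold. At 3 h against 0 h edgeR called 2 of 68, both higher, DESeq2 called 4, and 18 passed the unadjusted threshold, where 1.57% and 15.1% of all genes did, and without the discordant libraries edgeR called 6, beside 2.93% of all genes in that fit and 5.0% by DESeq2. The edgeR calls with all libraries were Shank2, a postsynaptic scaffold protein of the same group (1.08-fold, log2 0.11, adjusted p = 0.0456, called on leaving out 5 of 24), and Sh3gl1, an endophilin of the endocytic machinery with which Arc works (1.14-fold, log2 0.18, adjusted p = 0.0223, called on leaving out any of the 24). None of the 4 AMPA receptor subunits, the 11 genes of the Rheb and mTORC1 group, the 9 Polo-like kinases and spine Ras or Rap regulators or the 12 other activity-regulated effectors (Bdnf and Vgf among them) was called at 1 h or 3 h against 0 h over both genotypes by edgeR with all libraries, and DESeq2 called 1 of the Rheb group at each time and none of the others. At an unadjusted threshold of 0.05 these groups had 0, 2, 1 and 5 members past it at 1 h and 0, 4, 2 and 2 at 3 h, in the order named. Without the discordant libraries edgeR called 1 of the Rheb group at each time, 1 of the Polo-like group at 3 h and none of the rest. The 12 effectors had a median log2 difference of 0.10 at 1 h.

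In the comparison of mutant with WT over all times, 1 of 68 pathway genes was called by edgeR and 1 by DESeq2, and 8 passed the unadjusted threshold, where 1.3% and 15.2% of all genes were called by edgeR or passed it. The edgeR call was Inhbb, which encodes the other activin beta subunit and was lower in the mutants (0.776 of the WT level, log2 -0.37, SE 0.09, adjusted p = 0.0366, called on leaving out 24 of 36 single libraries). Inhba was not called in that comparison, and its value lay in the other direction. The other 11 genes of the activin and inhibin group, with receptors, follistatins and Smad proteins, were not called. Choroid plexus markers had lower fitted values in the mutants over all times as well, with a median log2 difference of -1.81 for the 5 genes, all 5 past the unadjusted threshold, none called by edgeR and 4 called by DESeq2. Their summed level had a median of 2086 CPM in WT 0 h, 1035 in WT 1 h and 2187 in WT 3 h, and of 191 CPM in mutant 0 h, 124 in mutant 1 h and 1467 in mutant 3 h, with overlapping ranges. The part of choroid plexus tissue in the Inhbb difference was not tested.

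Levels of the 8 genes did not rise and fall together from mouse to mouse as one set. After each group's mean was subtracted, Pearson's r over 36 libraries was highest for Nptx1 with Nptxr (0.76), followed by Plk2 with Nptx2 (0.51), Homer1 with Plk2 (0.49) and Plk2 with Rheb (0.49). Arc stood apart, with r between -0.29 (Plk2) and 0.14 (Homer1) for the other 7 genes, or between -0.16 (Plk2) and 0.29 (Inhba, from -0.16 with all libraries) without the discordant libraries. Nptx2 was not aligned with the other pentraxins (r = -0.30 with Nptx1 and -0.27 with Nptxr). These values are descriptions over libraries that share dissection, depth and scaling, and genes of one library are not independent.

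Arc was instead closest to early transcription factors. The 3 genes most like it within groups were Junb (r = 0.95), Nr4a1 (0.94) and Egr4 (0.87), and without subtracting group means they were Junb (0.96), Nr4a1 (0.95) and Fos (0.91). Without the 2 discordant libraries r within groups was 0.92 with Junb and 0.91 with Nr4a1, so the likeness does not rest on them. Mice with high Arc for their group were thus mice with high Junb and Nr4a1. For Homer1 the closest genes within groups were Gm10754 (0.73), Spred1 (0.71) and Man1a2 (0.71), and without subtracting group means Nr4a2 (0.80), Spred1 (0.78) and Usp31 (0.76). Homer1 had r = 0.04 with Junb and 0.49 with Egr3 within groups. Without the 2 discordant libraries Homer1 kept only 1 of its 3 closest genes within groups.

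For Plk2 the closest genes within groups were Kcnd2 (0.76), Atp2b1 (0.75) and Map4k3 (0.74), and without subtracting group means Kcnd2 (0.78), Sstr4 (0.76) and Pou3f1 (0.76), the last of which is on the list of CA1 markers used here. For Nptx1 they were Smoc2 (0.86), Olfm1 (0.86) and Map2k1 (0.84) within groups, and Smoc2 (0.85), Klhl2 (0.84) and Map2k1 (0.83) without subtracting. For Nptxr they were Celf4 (0.80), Adra1d (0.79) and Aldoa (0.79), and Adra1d (0.79), Bsn (0.76) and Dnm1 (0.76). The likeness was weaker for the others, with Hars (0.66), Camkk2 (0.62) and Spats2 (0.61) for Nptx2, 2900092D14Rik (0.67), Glrb (0.67) and Septin7 (0.66) for Rheb, and Gask1b (0.63), Crem (0.62) and Pdzrn4 (0.62) for Inhba. Without subtracting group means they included Camkk2 (0.66), Heca (0.65) and Mchr1 (0.65) for Nptx2, Zfp27 (0.63) and Olfm3 (0.62) for Rheb, and Rnf39 (0.61) and Htr4 (0.61) for Inhba. Across all genes the middle 90% of r ran from -0.38 to 0.39 for Arc and from -0.32 to 0.33 for Inhba.

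The 8 genes were also set beside summed marker levels. How many of all genes have r as high with the same markers was not computed, so these values are not shown to be particular to the 8. Within groups, Homer1, Plk2 and Nptx2 had r = 0.62, 0.64 and 0.55 with the summed level of 5 CA1 markers (Wfs1, Fibcd1, Pou3f1, Man1a and Gpr161). Nptx1 and Nptxr had r = 0.70 and 0.64 with 4 CA3 markers (Grik4, Bok, Iyd and Cdh24), -0.62 and -0.63 with 5 oligodendrocyte markers, and -0.67 and -0.60 with 5 striatal markers, whose summed level was low. Rheb had r = -0.58 with the choroid plexus markers, and Arc had r between -0.53 (astrocyte) and 0.39 (thalamus) with the 12 lists. All 5 CA1 markers were detected, and their summed level ran from 549 through a median of 609 to 830 CPM in WT 0 h and from 584 through 692 to 895 CPM in WT 1 h. In the mutants it ran from 489.3 through 606.5 to 722.7 CPM at 0 h and from 534.9 through 677.6 to 803 CPM at 1 h. The CA1 median was thus higher at 1 h in both genotypes, as Homer1 and Nptx2 were, with overlapping ranges. At 1 h over both genotypes edgeR called none of the 5 CA1 markers and DESeq2 called 1, and 3 passed the unadjusted threshold, where 1.05%, 2.73% and 12.8% of all genes did, and their median log2 difference was 0.15. The part of CA1 content in the Homer1 and Nptx2 differences was not tested.

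**Figure D4:**
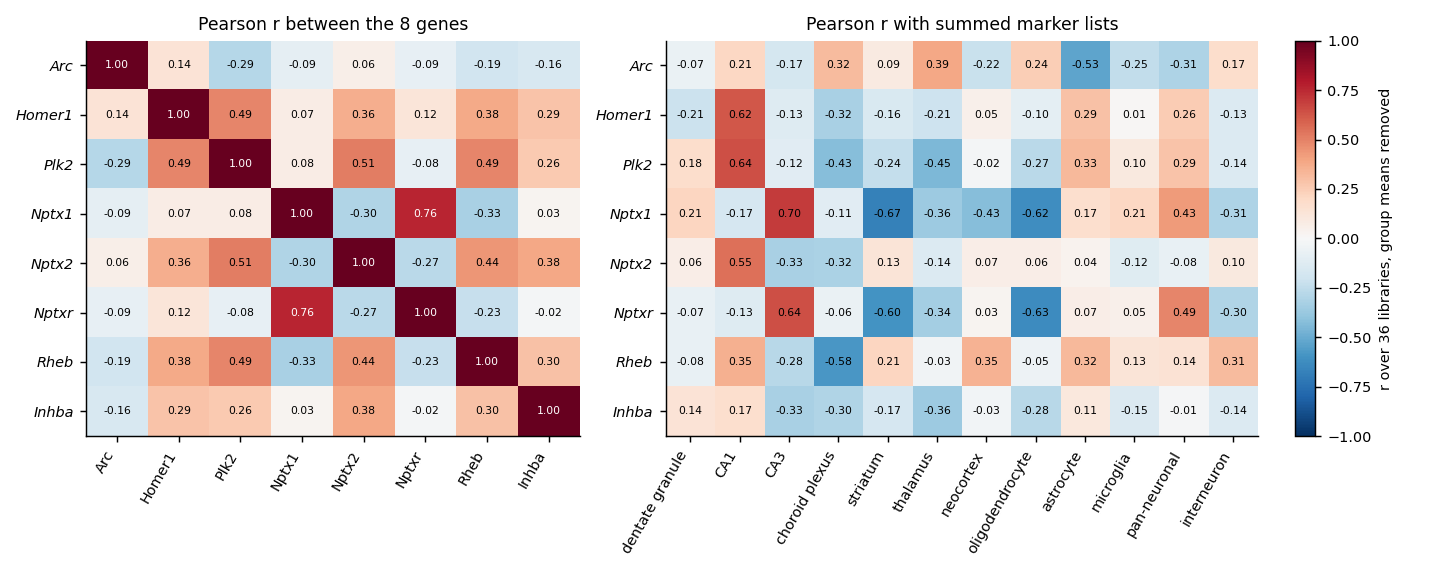
Pearson's r over 36 libraries, after the mean of each group was subtracted, between the log2 CPM of the 8 genes (left) and between each gene and the summed CPM of 12 marker lists (right), with color and number both giving r. Nptx1 and Nptxr had r = 0.76 with each other and 0.70 and 0.64 with CA3 markers. Homer1, Plk2 and Nptx2 had r = 0.62, 0.64 and 0.55 with CA1 markers, and Arc was close to none of the other 7 genes.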

How the data were processed

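RNA of the dorsal hippocampus was sequenced in 36 libraries. Per the labels and the study's methods, the authors aligned reads to mm10 with STAR 2.7.8a, counted them with featureCounts 2.0.1 and deposited raw counts per gene, 1 library a file. The annotation and strand setting are not given in the sources used here. Of the identifiers, 25275 were named through RefSeq (GRCm38.p6), and the 1904 without a name held 1.284% of counts and stayed in the fits. The 8 genes and all gene lists were chosen with earlier results of these data known. Comparisons used edgeR 4.0.16 quasi-likelihood tests, 2-sided, on the libraries compared, with labelled sex as a covariate and genotype or time where both were pooled, after filterByExpr (minimum count 10) and TMM scaling, with p-values adjusted over all genes tested (Benjamini-Hochberg) and a threshold of 0.05. In r values, log2 CPM used a prior count of 2. All 8 genes are named, pathway genes where called (up to 5 a list), and for each gene the 3 genes with the highest r, of which some for Rheb and Inhba are not reported here.

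Alternatives were DESeq2 1.42.0, RLE factors, no filter, no sex term, sex by sex transcripts, leaving out the discordant libraries or each library, all 36 libraries in 1 fit, non-robust dispersion and a replicate block. Every DESeq2 share is of the genes to which DESeq2 gave an adjusted p, whose number varied from 14340 to 23101 between comparisons. Shares for edgeR are of the genes that passed its filter, so the 2 kinds of share have different denominators. Same-numbered libraries of the same labelled sex are different mice. Their deviations from the group means correlated above 0.1 in 6 of 6 pairs in mutant 1 h against 0 h (r 0.17 to 0.30, and above 0.1 in 2 of 6 once sex means were removed too), and in no other comparison in every pair. Each library is 1 mouse per the study, so p-values measure the spread between these mice. The fits were tested on simulated data. 8 further samples (whole hippocampus) were not analysed here.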

Additional observations from a re-analysis of the deposited data

Results flagged for a closer look

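In 5 of the 48 sets of 6 libraries (8 genes in 6 groups), 1 library stood farther from its neighbor than Dixon's 95% limit for 6 values allows. Chance sets off about 1 in 20 such groups. Arc was 332 CPM in the library labelled mutant 3 h female 2, with the next at 125 CPM. Inhba was 5.92 CPM in the library labelled WT 1 h male 1, with the next at 4.45 CPM. These are the libraries whose sex transcripts go against the label. Homer1 was 122 CPM in WT 3 h male 1, below the next at 138 CPM, and 104 CPM in mutant 0 h male 1, below the next at 122 CPM. Nptx2 was 58.3 CPM in mutant 3 h female 3, above the next at 44.3 CPM.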

How the results depend on the processing

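Of the 15 comparisons, 11 had the same number of the 8 genes called under every alternative run. In mutant 1 h against 0 h, where 1 was called, DESeq2 and the replicate block each called 2, the fit of all 36 libraries called 0, and leaving out 1 library gave 0 to 1. In both genotypes at 1 h against 0 h, where 2 were called, DESeq2, the fit without the sex term and the replicate block each called 3, the fit of all 36 libraries called 1 and leaving out 1 library gave 1 to 3. At 3 h against 0 h DESeq2 called 1 in place of 0. At 3 h against 1 h DESeq2 and the fit without the discordant libraries each called 1 in place of 0, and leaving out 1 library gave 0 to 1. The causes were not tested. Arc in mutant against WT over all times turned from 0.02 to -0.18 on the log2 scale without the discordant libraries, and ran from -0.129 to 0.0849 on leaving out single libraries. Likewise Arc at 3 h against 0 h over both genotypes ran from -0.25 to 0.0456, and Nptxr in WT 1 h against 0 h from -0.181 to 0.0207. Over all genes, DESeq2 called more than edgeR, with 425 against 188 at 1 h, 733 against 281 at 3 h, 292 against 87 between 3 h and 1 h, 362 against 54 in mutant 1 h and 555 against 237 between genotypes over all times. Without the discordant libraries edgeR called 359 genes at 1 h, 529 at 3 h, 118 higher and 258 lower between 3 h and 1 h, 507 between genotypes over all times, 41 between genotypes at 1 h and 18 at 3 h (0 and 2 with all libraries), and 18 in mutant 3 h against 1 h (0 with all), and with the block 452 at 3 h and 55 between 3 h and 1 h. The replicate block, which pairs libraries by sex and number, called Nptx2 in mutant 1 h against 0 h and over both genotypes at 1 h (adjusted p = 0.016). In mutant 1 h against 0 h, 6 of 6 pairs correlated above 0.1, or 2 of 6 with sex means removed. In WT 1 h against 0 h, 2 of 6 did. A pairing was thus not established for either call, and the block changed no other call of the 8 genes. Mean levels under RLE or total-count scaling moved by less than 1 SD in all 48 groups. Without the discordant libraries fewer than 2 of the 3 most similar genes were shared in 6 of 16 sets, and with a prior count of 0.5 all were shared. The lowest count of any of the 8 genes was 160 (Inhba), so counting error bears most on Inhba.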
